A study of Mus musculus with 4 samples.

Results

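Cdh1, which encodes the cell adhesion protein E-cadherin, was examined together with 7 genes of the same regulatory circuit, Zeb1, Zeb2, Snai1, Snai2, Snai3, Twist1 and Ctnnb1, for binding of SMAD4 in mouse alveolar macrophages (AMs). The 8 genes were chosen by name, out of 26089 genes with a curated RefSeq transcript, and every SMAD4 peak was taken whose summit lay in the body of a gene or within 200 kb of one of its transcription start sites (TSSs). AMs of 9-wk-old wild-type C57BL/6J mice were collected by bronchoalveolar lavage and flow cytometric sorting, and SMAD4 binding was mapped by HT-ChIPmentation, in which antibody-bound chromatin is given its sequencing adapters on the beads by the Tn5 transposase. The series has 4 samples, 2 SMAD4 immunoprecipitations and 2 inputs without antibody, all wild type and with no treatment named, so that no Smad4-deficient or stimulated group was compared. The SMAD4 libraries have peak lists and are called replicate 1 and replicate 2, and the inputs enter through the control level behind each peak. Nothing in the labels says whether the replicates came from separate mice, and the submitted description and the study's methods name different suppliers of the SMAD4 antibodies.

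E-cadherin joins neighbouring cells and holds β-catenin, the product of Ctnnb1, at the membrane, and β-catenin released from it can act with TCF/LEF factors on transcription. ZEB, SNAIL and TWIST proteins bind short E-box sequences and repress Cdh1 during epithelial-mesenchymal transition (EMT), a program that TGFβ starts through receptor-activated SMADs and their shared partner SMAD4. AMs are macrophages that carry E-cadherin, depend on TGFβ of the lung, and use ZEB2 to keep the identity of resident macrophages.

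Within the windows of the 8 genes, replicate 1 had 50 of its 16369 peaks and replicate 2 had 69 of its 19015. Peaks that overlapped between the lists by at least 1 bp were merged into shared regions, of which the windows held 40 of 10964. A TSS of the same gene was the nearest to 12 of the 40 regions, 6 of them at Zeb2, 4 at Cdh1, 1 at Zeb1 and 1 at Snai3. The other 28 were nearest to a TSS of 15 other genes. Shared regions lay in the windows of 6 of the 8 genes, against 71.4% of 20923 protein-coding genes, and 4 of the 8 genes were nearest to a shared region in their window, against 21.3% of protein-coding genes. With regions at any distance, 5 of the 8 genes had a nearest region, against 21.5%. The 8 genes were chosen with earlier results of these data known, so these shares are a description and not a test. The paper itself names Cdh1 and Zeb2 among genes with SMAD4 peaks. The gene lengths differed widely. Zeb1, Zeb2 and Cdh1 spanned 184 kb, 134 kb and 66.9 kb, while the median protein-coding gene spanned 16.8 kb, and a nearest region was found for 36.8% of protein-coding genes of 60 to 200 kb but for 11.5% of those under 10 kb.

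**Figure D1:**
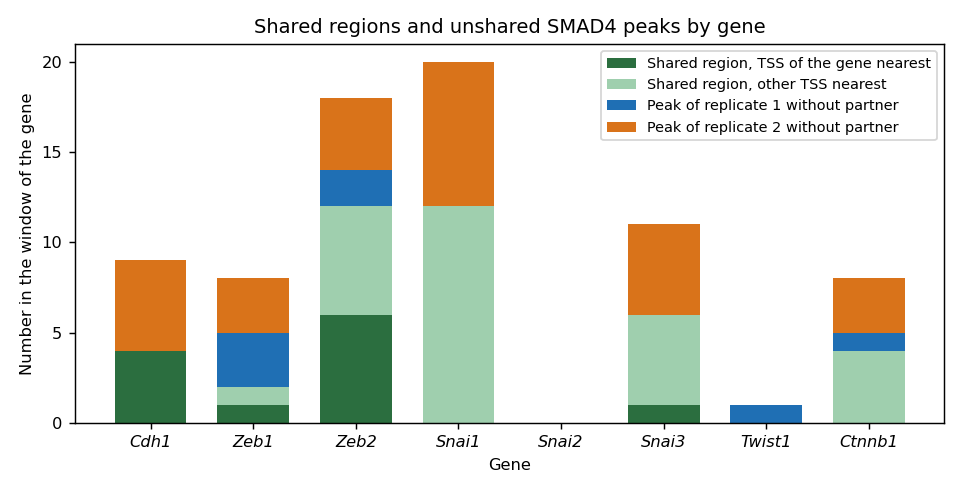
Bars show, for each gene, the number of shared regions nearest to its own TSS (dark green) or to another TSS (light green) and of unshared peaks of replicate 1 (blue) and replicate 2 (orange) in its window, on a linear axis from 0. Zeb2 and Snai1 each had 12 shared regions, but the 12 at Snai1 were all nearest to other genes, and Snai2 had no peak.

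Most window peaks of replicate 1 were also found in replicate 2, and a smaller share the other way round. Of the window peaks, 43 of 50 in replicate 1 had a partner in replicate 2 (86%, exact 95% binomial interval 73.3% to 94.2%, covering counting error only), against 69.4% of its whole list. In replicate 2, 41 of 69 had a partner (59.4%, 46.9% to 71.1%), against 59.2% of its list. Among peaks nearest to a TSS of the 8 genes the shares were 13 of 16 (81.2%, 54.4% to 96.0%) and 12 of 17 (70.6%, 44.0% to 89.7%), intervals that hold the share of the whole list in both replicates. Summits of window peaks without a partner had 12 to 14 stacked fragments in replicate 1 (median 13) and 8 to 19 in replicate 2 (median 12). Those with a partner had 10 to 69 (median 20) and 9 to 79 (median 21), so the ranges overlapped at the low end in both replicates.

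**Figure D2:**
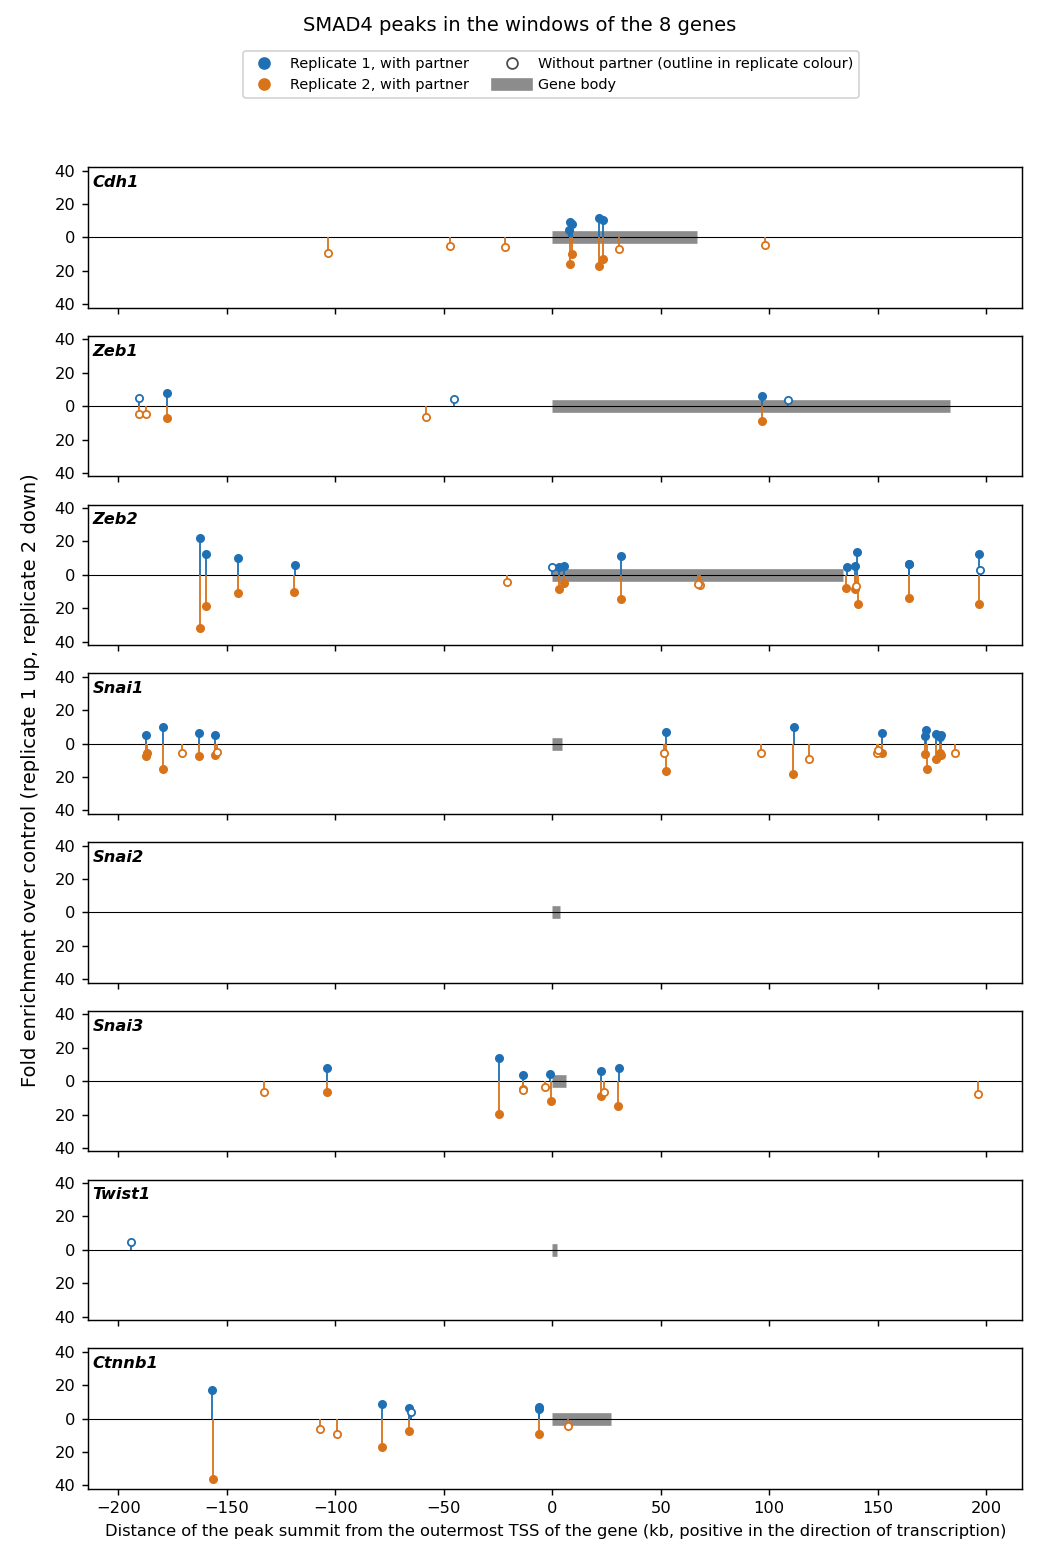
Each panel shows the window of 1 gene, with the distance of peak summits from the outermost TSS in kb (positive in the direction of transcription) and fold enrichment upward for replicate 1 (blue) and downward for replicate 2 (orange). Filled circles are peaks with a partner, open circles peaks without one, and grey bars gene bodies. The filled circles of Cdh1 lie inside the gene, those of Zeb2 lie upstream, inside and downstream, and Snai1 and Ctnnb1 have none inside.

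Zeb2, a zinc-finger repressor, had the most nearest SMAD4 regions of the 8 genes when curated transcripts were used. Its 6 nearest regions are a number that 1.09% of protein-coding genes reach, and 12 shared regions in a window were found for 1.82%. Both shares are over genes of all lengths, whereas Zeb2 spans 134 kb and has 3 other genes with a TSS in its window. Zeb2 lies on the minus strand of chromosome 2 (45117442 to 44983512, mm10, 7 curated transcripts). A group of 4 of its regions formed a series far upstream, in intergenic sequence, 1 lay in a promoter and 1 in an intron.

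The strongest of these, at chr2:45279272-45280142, had its summit 162206 bp upstream of the nearest Zeb2 TSS. Fold enrichment, the fragments stacked at the summit plus 1 over the control level plus 1, was 22.1 in replicate 1 and 32.0 in replicate 2, and 67 and 70 fragments were stacked at the summit. Of all shared regions, 2.85% were as strong by the smaller of the 2 folds. Exact 95% Poisson intervals of its pileups, 51.9 to 85.1 and 54.6 to 88.4, did not overlap those of the next region in either replicate. That next region, at chr2:45276391-45277212, lay 2722 bp away, with folds of 12.3 and 18.5, pileups of 37 (26.1 to 51.0) and 40 (28.6 to 54.5), and a summit 159484 bp upstream of the TSS. Farther toward the gene, a region 144658 bp upstream (chr2:45261882-45262364) had folds of 10.4 and 10.8, and a region 118811 bp upstream (chr2:45236077-45236502) had 5.85 and 9.93. Enrichment was thus lower in both replicates at each of the next 3 regions toward the gene, although the pileup intervals of neighbours other than the first pair overlapped. The assignment of these 4 regions to Zeb2 depends on the gene models. With predicted RefSeq transcripts included, Vis1, a locus of predicted transcripts upstream of Zeb2, was the nearest gene to all 4, at 2727 to 40668 bp, and 2 regions were left nearest to Zeb2, fewer than the 4 of Cdh1.

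The sequence around the summits of the 2 strongest of the 4 far upstream regions, and of the region in the intron, is shown because these 3 were the strongest of Zeb2. Windows of 201 bp centred on the mean summit are given on the plus strand of mm10, from the RefSeq release of GRCm38.p6, with matches to consensus strings in capitals, nuclear receptor strings (AGGTCA) excepted.
Zeb2, 162206 bp upstream of the TSS, chr2:45279548-45279748: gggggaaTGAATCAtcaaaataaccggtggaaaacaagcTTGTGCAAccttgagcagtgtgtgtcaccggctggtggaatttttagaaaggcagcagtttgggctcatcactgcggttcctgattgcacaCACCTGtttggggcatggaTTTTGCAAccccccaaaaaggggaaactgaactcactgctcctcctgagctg
Zeb2, 159484 bp upstream of the TSS, chr2:45276826-45277026: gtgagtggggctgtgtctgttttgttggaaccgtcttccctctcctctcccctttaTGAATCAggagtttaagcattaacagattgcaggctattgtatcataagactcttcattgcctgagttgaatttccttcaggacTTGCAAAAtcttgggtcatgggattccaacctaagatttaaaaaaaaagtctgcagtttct
Zeb2, 24429 bp downstream of the TSS, chr2:45085748-45085948: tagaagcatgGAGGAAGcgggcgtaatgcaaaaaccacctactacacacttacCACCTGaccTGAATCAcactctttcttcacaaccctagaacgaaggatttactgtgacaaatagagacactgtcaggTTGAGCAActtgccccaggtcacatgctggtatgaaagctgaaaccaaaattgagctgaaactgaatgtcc
In the first window the capitals mark, in order, an AP-1 string (TGANTCA), a CEBP string (TTGCNNAA or TTACNNAA on either strand), a ZEB/SNAIL E-box (CAGGTG, here read as CACCTG on the plus strand) and another CEBP string. CEBP strings are those that C/EBPα and C/EBPβ bind, factors that set up enhancers in myeloid cells. The E-box lay 33 bp from the summit, and the CEBP strings 57 and 53 bp from it, 1 on each side. The second window has an AP-1 and a CEBP string, 41 and 44 bp from the summit on opposite sides. The third holds a PU.1 string (GAGGAAG), an E-box, an AP-1 string and a CEBP string, and also 2 nuclear receptor strings without capitals of their own, 1 on the minus strand that shares bases with the E-box and the AP-1 string and 1 on the plus strand 49 bp after the summit. The AP-1 strings of these 3 windows all read TGAATCA, since the pattern TGANTCA allows any middle letter. A match of letters describes the sequence and is not a binding site by itself. A distal upstream Zeb2 enhancer with C/EBP sites is known from myeloid progenitors and dendritic cells, and whether it is the same interval was not examined here.

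Inside Zeb2, the third of these windows belongs to a region at chr2:45085570-45086115, 24429 bp downstream of the nearest TSS in an intron of 86.9 kb. Its folds were 11.4 and 14.4, with 34 and 31 fragments at the summit, and its pileup intervals overlapped those of the second upstream region. Near the start of the gene enrichment was weaker. A promoter region at chr2:45113926-45114419, 901 bp upstream of a TSS, had folds of 4.77 and 8.37 and pileups of 15 (8.40 to 24.7) and 19 (11.4 to 29.7). At 82.4% of all shared regions the smaller fold was as high. Farther into the gene, a region at chr2:45111995-45112295 was nearest to the antisense transcript Zeb2os, in whose promoter it lay, with folds of 5.20 and 4.60. Replicate 1 alone had a promoter peak at the most upstream TSS (chr2:45117602-45117734, fold 4.87, 14 fragments, 272 bp upstream), where replicate 2 had none.

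The far side of the locus carried regions too. Just beyond the 3′ end of Zeb2, 3 regions were nearest to the microRNA gene Mir5129, which lies inside Zeb2. The strongest, chr2:44976262-44977147, had folds of 13.6 and 17.1, and the others had 5.20 and 8.57 (chr2:44977427-44977837) and 4.55 and 8.12 (chr2:44981692-44981972). Beyond them, 2 regions were nearest to Gtdc1, a gene of the glycosyltransferase family, with folds of 12.3 and 17.6 in its intron (chr2:44920512-44921422) and 6.82 and 13.5 upstream of it (chr2:44952757-44953429). When the nearest TSS was sought among protein-coding genes alone, 7 regions were nearest to Zeb2.

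Zeb1, the paralog of Zeb2, had fewer regions. Its gene spans 184 kb of chromosome 18, and its 1 nearest region, at chr18:5688581-5688818, lay 96065 bp downstream of a TSS in an intron, with folds of 5.85 and 8.57 and 17 and 18 fragments at the summit. For 62.8% of all shared regions the smaller fold was as high. The other region in the window, at chr18:5414005-5414439, was nearest to the zinc-finger gene Zfp438, with folds of 7.80 and 7.22. Of the 5 peaks that each replicate had in the Zeb1 window, 2 had a partner. With curated transcripts, Zeb1 and Zeb2 thus differed in the number of nearest regions, 1 against 6, and in the highest fold, 5.85 and 8.57 against 22.1 and 32.0, as a description with no test. With predicted transcripts included the numbers were 1 against 2, and the stronger region left at Zeb2 had folds of 11.4 and 14.4.

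Cdh1 had 4 shared regions, all in intron 2, the 44.6 kb intron of its 16-exon transcript (NM_009864.3) on the plus strand of chromosome 8. As many nearest regions were found for 2.77% of protein-coding genes, taken over all lengths. The regions came in close pairs. The first pair had summits 8097 and 9023 bp downstream of the TSS, 926 bp apart, and the second 21599 and 23227 bp downstream, 1628 bp apart, with 12576 bp between the pairs. No peak of either replicate lay in the promoter, and the closest summits to the TSS were 7821 bp away in replicate 1 and 8062 bp in replicate 2.

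The strongest region, chr8:106624700-106625271, had folds of 11.4 and 17.1 with 34 (23.5 to 47.5) and 37 (26.1 to 51.0) fragments at the summit, and 17.9% of all shared regions were as strong. Its pair, chr8:106626354-106626899, had folds of 10.4 and 13.0 with 34 and 30 fragments. In the pair closer to the TSS, chr8:106611089-106611662 had 9.10 and 15.8 with 27 and 34 fragments, and chr8:106612120-106612494 had 7.80 and 9.93 with 23 and 21. The 4 pileups overlapped in their intervals in each replicate, so the order within the intron is not resolved at this depth. Replicate 2 had 1 more peak in the intron, 30677 bp downstream of the TSS, with a fold of 6.77 and 14 fragments, and no partner in replicate 1. Its other unshared peaks in the window were nearest to Cdh3, the neighbouring P-cadherin gene (fold 9.02), to 1110028F18Rik (4.96 and 5.87) and to Tango6 (4.22).

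The windows of the strongest region of each pair are shown, in the same form as those of Zeb2.
Cdh1, 8097 bp downstream of the TSS, chr8:106611347-106611547: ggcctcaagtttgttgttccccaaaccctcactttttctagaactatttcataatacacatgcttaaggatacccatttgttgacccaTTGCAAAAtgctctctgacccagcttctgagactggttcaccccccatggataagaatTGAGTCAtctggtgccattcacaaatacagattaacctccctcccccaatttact
Cdh1, 21599 bp downstream of the TSS, chr8:106624849-106625049: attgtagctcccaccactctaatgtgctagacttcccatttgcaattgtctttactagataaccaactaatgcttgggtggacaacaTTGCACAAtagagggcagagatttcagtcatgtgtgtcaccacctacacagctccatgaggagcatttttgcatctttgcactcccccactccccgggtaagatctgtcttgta
The first has a CEBP string 8 bp and an AP-1 string 49 bp from the summit, on opposite sides. In the second, a CEBP string lies 9 bp from the summit and no other string is marked. The weaker region of the first pair held a CEBP string 24 bp from the summit, a SMAD string (GTCTGG) at the summit, an ETS string (CAGGAAG) and a TCF/LEF string (ATCAAAG), the motif through which β-catenin acts. That was the 1 TCF/LEF string among the 12 regions. The weaker region of the second pair held a PU.1 string. No ZEB/SNAIL E-box was found within 100 bp of the summit in the 4 Cdh1 regions.

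Among the SNAIL genes, which encode zinc-finger repressors of Cdh1, Snai3 had a region of its own. It lay in the promoter at chr8:122461167-122461664, 758 bp upstream of the TSS, with folds of 4.55 and 12.2 and pileups of 13 (6.92 to 22.2) and 26 (17.0 to 38.1). Its ratio of folds between the replicates, 2.68, was the highest in the windows, although its pileup intervals overlapped. A promoter with a shared region is found for 2.91% of protein-coding genes. The window is shown because it holds the 1 RBPJ string (GTGGGAA) among the 12 regions, the motif bound by the effector of NOTCH signalling.
Snai3, 758 bp upstream of the TSS, chr8:122461347-122461547: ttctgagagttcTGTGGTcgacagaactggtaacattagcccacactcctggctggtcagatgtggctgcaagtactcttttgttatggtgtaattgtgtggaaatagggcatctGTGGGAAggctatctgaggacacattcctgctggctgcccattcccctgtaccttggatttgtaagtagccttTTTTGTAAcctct
The capitals mark a RUNX string (TGTGGT) 85 bp before the summit, the RBPJ string 18 bp after it and a CEBP string 92 bp after it. The other 5 regions of the Snai3 window, a dense stretch with 17 other genes, were nearest to Cyba, the p22phox subunit of NADPH oxidase (folds 7.80 and 14.9), Mvd of the mevalonate pathway (6.17 and 9.02), Rnf166 (3.57 and 4.51), Ctu2 (14.0 and 19.4, inside an exon of Piezo1) and the replication licensing gene Cdt1 (7.80 and 6.32).

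Snai1 and Snai2 had no nearest region. The Snai1 window held 12 peaks of replicate 1, all with a partner, and 21 of replicate 2, 13 of them with a partner. Its 12 shared regions stood at distances of 52411 bp or more from the TSS, and 1.82% of protein-coding genes had as many in their window. B4galt5, a galactosyltransferase gene, was nearest to 4 (strongest at chr2:167358424-167359031, folds 9.91 and 15.3), Ube2v1 to 1 (6.82 and 16.2) and Tmem189 to 1 (chr2:167649200-167649770, 10.2 and 18.1, 49 and 59 fragments). The other 6 were nearest to the non-coding A530013C23Rik, beside Cebpb, the gene of C/EBPβ. They included 1 in its promoter at chr2:167690142-167690332, within Cebpb (6.17 and 5.41), and 1 at chr2:167710544-167710905 (8.12 and 14.9). Neither library had a peak in the Snai2 window, and the closest shared region to the Snai2 TSS was 354949 bp away. At Twist1, a bHLH factor of mesoderm and EMT, the window held 1 peak of replicate 1 (fold 4.74, 14 fragments, nearest to Ferd3l) and no shared region. A shared region at chr12:34195532-34195862, 238014 bp from the Twist1 TSS, was nearest to it but outside the window, with folds of 4.77 and 3.77 and pileups of 15 and 8.

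Ctnnb1 likewise had no nearest shared region, and the strongest region of all windows in replicate 2 stood upstream of it. This region, chr9:120776325-120777077, lay 156631 bp upstream of the Ctnnb1 TSS, with folds of 16.9 and 36.1 and 69 (53.7 to 87.3) and 79 (62.5 to 98.5) fragments, and 6.31% of all shared regions were as strong. The nearest TSS was that of the non-coding Gm19385, 89776 bp away. Its window is shown because it holds 2 CEBP strings, 2 AP-1 strings and 2 ZEB/SNAIL E-boxes in 201 bp, beside a STAT5 string (TTCNNNGAA) and a RUNX string.
Ctnnb1, 156631 bp upstream of the TSS, chr9:120776669-120776869: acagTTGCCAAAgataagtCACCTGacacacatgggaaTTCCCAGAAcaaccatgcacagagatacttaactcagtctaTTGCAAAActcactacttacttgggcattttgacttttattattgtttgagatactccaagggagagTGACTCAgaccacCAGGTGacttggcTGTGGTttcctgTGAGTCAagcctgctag
Between it and Ctnnb1 stood 2 more regions nearest to Gm19385, with folds of 8.77 and 17.1 (chr9:120854659-120855347) and 6.26 and 7.22 (chr9:120866830-120867459, in its promoter). The region closest to Ctnnb1, chr9:120927012-120927661, was 5990 bp upstream of the TSS, in an intron of the non-coding 4930593C16Rik, with folds of 6.82 and 9.02. With TSSs of protein-coding genes alone, all 4 were nearest to Ctnnb1. Inside Ctnnb1, replicate 2 had 1 peak, 6971 bp downstream of the TSS (fold 4.56, 12 fragments), and replicate 1 had none.

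Taking the 12 nearest regions as a group, fold enrichment ranged from 4.55 to 22.1 in replicate 1 and from 8.37 to 32.0 in replicate 2. The medians were 9.75 and 12.6, against 6.82 and 9.48 over all shared regions, and the median pileups 29 and 28, against 20 and 21. Folds were higher in replicate 2 at 12 of 12 regions, as they were at 87.2% of all shared regions, and the ratio of replicate 2 to replicate 1 had a median of 1.48, against 1.39. The control level at the summit was 2.08 fragments in replicate 1 and 1.22 in replicate 2 where it stood at the genome-wide background, so equal pileups gave a higher fold in replicate 2. The rank correlation of the folds between replicates was 0.835 over the 12 regions and 0.782 over all 10964, as descriptions of the same pair of libraries. In the order by pileup, 10 of 11 neighbouring pairs overlapped in their Poisson intervals in each replicate, the exception being the strongest Zeb2 region and the next.

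**Figure D3:**
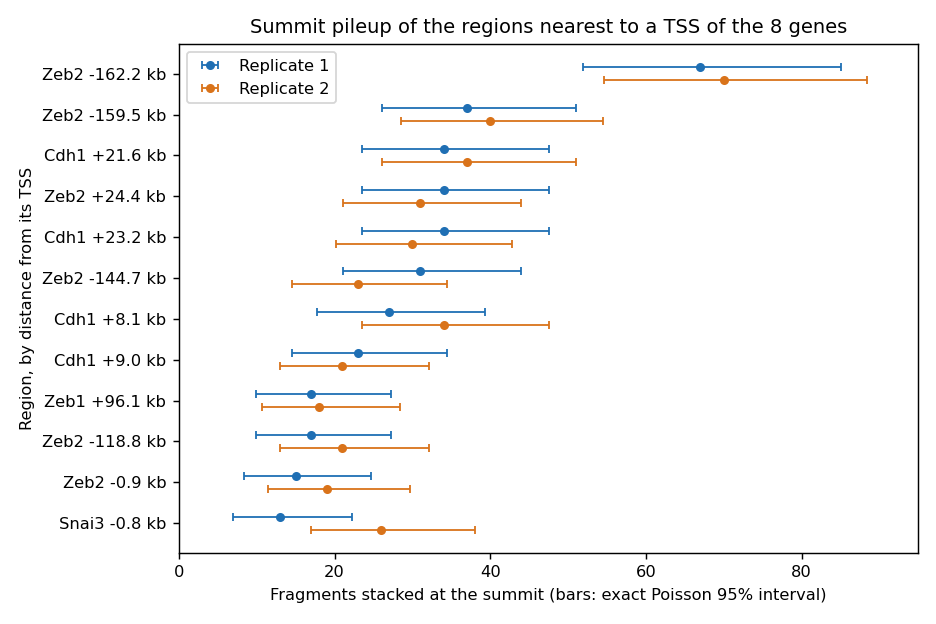
Points are the fragments stacked at the summit of the 12 regions nearest to a TSS of the 8 genes in replicate 1 (blue) and replicate 2 (orange), with exact 95% Poisson intervals that cover counting error only, on a linear axis from 0. Only the region upstream of Zeb2 at the top, with 67 and 70 fragments, has intervals apart from those of the others, and narrowly. Its lower limits are 51.9 and 54.6, against upper limits of 51.0 and 54.5 at the next region.

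**Figure D4:**
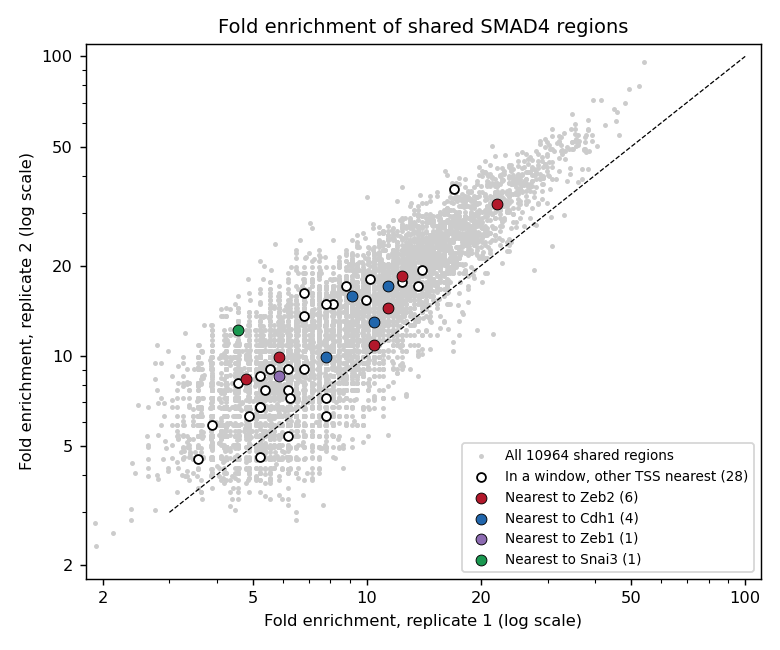
Fold enrichment of shared regions in replicate 1 (x) and replicate 2 (y), both on log axes, for all 10964 regions (grey), the 28 window regions nearest to other genes (open circles) and the 12 nearest to Zeb2 (red), Cdh1 (blue), Zeb1 (purple) or Snai3 (green). The dashed line marks equal folds, and all 12 coloured points lie above it.

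Introns held 6 of the 12 regions (50%), intergenic sequence 4 (33.3%) and promoters 2 (16.7%), against 49.3%, 40.5% and 6.42% of all shared regions. Within 100 bp of the summit, CEBP strings were found in 9 of the 12 (75%), in 22 of the 40 window regions (55%) and in 56.1% of all shared regions. Windows of the same size 1 kb to either side of the 12 had 4 of 24 (16.7%), those of all regions 17.2%, and RefSeq promoters of 300 bp 18.5%. The 3 regions without a CEBP string were the Cdh1 region 23227 bp downstream, the Zeb1 region and the Zeb2 region 118811 bp upstream. AP-1 strings (TGANTCA) were found in 4 of the 12 (33.3%), 3 at Zeb2 and 1 at Cdh1, against 12.3% of all shared regions, 4 of 24 flanking windows of the 12 and 7.81% of promoters. This pattern allows any middle letter and is looser than TGACTCA or TGAGTCA. All 3 matches at Zeb2 read TGAATCA, and the 1 at Cdh1 read TGAGTCA. Counts of 12 leave such shares loosely fixed.

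The SMAD string was found in 1 of the 12 (8.33%) and in 11.2% of all shared regions, with 10.4% in flanking windows and 17.9% in promoters. ZEB/SNAIL E-boxes were in 2 of the 12 (16.7%), both at Zeb2, and in 5.84% of all regions. Flanking windows of the 12 held them in 3 of 24 (12.5%), those of all regions in 13.5%, and promoters in 20.2%. TWIST E-boxes (CATATG) were in none of the 12 and 5.39% of all. PU.1 strings were in 3 (25%) against 17.6%, RUNX strings in 3 (25%) against 26.4%, nuclear receptor strings (AGGTCA) in 2 (16.7%) against 15.4%, and STAT5 strings in none against 8.06%. The GC content of the 12 windows was 45.1% ± 3.44 (SD, n = 12), against 43.7% ± 6.49 over all regions.

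Genes that act with the 8 were examined by the same measure, the share nearest to a shared region, beside 21.5% of protein-coding genes. Of 12 adherens junction partners, 4 had a region (33.3%). These were the junction proteins Ctnnd1 (p120-catenin, folds 9.10 and 10.4), Jup (plakoglobin, 4.87 and 6.32), Vcl (vinculin, 11.4 and 19.4) and Afdn (afadin, 4.87 and 7.22). Of 14 genes of the β-catenin destruction complex and TCF/LEF partners, 4 had one (28.6%), Apc and Axin2 of the destruction complex, the WNT co-receptor Lrp6, and Tcf7l2, a TCF factor with 3 regions and folds of up to 23.1 and 32.0. Of 11 E-box, ID and other EMT factors, 5 had one (45.5%). Id1, an inhibitor of bHLH factors and a known BMP and TGFβ target, led them with 14.6 and 32.9, and the others were Twist2 (7.80 and 8.57), the E-protein genes Tcf3, in its promoter (7.47 and 9.02), and Tcf12 (8.77 and 15.8), and Tcf4. Distances to the TSS ran from 277 bp at Tcf3 and 5517 bp at Id1 to 183305 bp at Twist2 and 229362 bp at Tcf4. They were 91448 bp at Axin2, 74882 bp for the strongest region of Tcf7l2 and 74790 bp at Afdn.

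Genes listed as mesenchymal effectors and as epithelial factors were counted in the same way. Of 10 mesenchymal effectors, 6 had a region (60%, 14 regions in all). Among them were Tgfbi, an extracellular matrix protein named for its induction by TGFβ, with 6 regions (strongest 11.4 and 14.0), Acta2 with 3 (10.7 and 17.6), Mmp9 with 2 (6.50 and 10.5), Vim (4.22 and 7.67), and Itgb6 (7.15 and 20.8), an integrin subunit that helps to activate latent TGFβ and is known from epithelial cells, against the name of its list. Distances to the TSS included 74972 bp for Itgb6 and 1726 bp for the strongest region of Tgfbi. Of 13 epithelial factors and ZEB-targeting microRNAs, 2 had one (15.4%), the splicing factor Esrp1 (6.50 and 6.28) and Mir200c, a microRNA that represses ZEB mRNAs (4.87 and 10.4). The region nearest to Mir200c lay 5316 bp upstream of its TSS, in an intron of another gene. Of 8 ZEB and SNAIL corepressors, Sin3a alone had one (12.5%, folds 4.55 and 15.8). These counts are of genes of unequal length, and their differences were not tested. The epithelial list also includes microRNA genes, whereas the share used for comparison is that of protein-coding genes.

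Cell type markers, listed with earlier results of these data known, were counted in the same way, beside 21.5% of protein-coding genes. Of 10 AM markers, 9 (90%) were nearest to 30 shared regions, Fabp4 being the exception. Folds reached 45.8 and 65.4 at Chil3 and 33.8 and 49.6 at Pparg, which had 11. Of 12 lung epithelium markers, Scgb1a1 had regions (4, the strongest in its promoter with folds of 7.47 and 11.3). The other 11, Epcam and Sftpc among them, were nearest to no peak of either list. Of 6 lymphocyte markers 1 had a region (Ncr1, 16.7%), and so did 1 of 4 neutrophil markers (25%), shares near that of protein-coding genes. The neutrophil marker was S100a8, with a promoter region of folds 13.6 and 30.7. Peak lists hold no expression, so these counts describe where SMAD4 peaks lay and not which cells were present. The paper supplies sequencing quality metrics, but sequencing depth was not examined here. Depth enters through the whole fragments stacked at each summit, with a median of 17 over the list of replicate 1 and 14 over that of replicate 2.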

How the data were processed

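SMAD4 peaks of 2 HT-ChIPmentation libraries of mouse AMs were analysed, grouped by the labels. Replicates are numbered in accession order, and nothing ties a library to an input. Per the submitters' processing notes and the methods, the authors used cutadapt for trimming, Bowtie2 for alignment to mm10 and SAMtools for filtering, and called peaks with MACS3 per library at a q-value limit of 0.05. Each peak that the authors deposited has a fold ratio over the control at the summit, a −log10 p and a −log10 q there, a score that was not used, and a summit. These served to describe and rank peaks.

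The pileup and control level were solved from the fold and p of each peak. As a check of the solving step, 100% of simulated pileups were recovered, in sets of 810 and 936. Simulated folds and p came from the same formula, so this does not test whether the deposited values follow it. The control stood at its genome-wide level at 79.4% and 80.9% of summits. The nearest gene had the closest TSS among 45657 curated RefSeq transcripts (GRCm38.p6). Promoters ran from 1 kb upstream to 100 bp downstream of a TSS, as in HOMER, the annotation tool of the study. Consensus strings of 13 names were sought on both strands within 100 bp of the mean summit, and PU.1 and ETS strings differ in 1 letter. RefSeq promoters ran from 250 bp before to 50 bp after a start. Shares carry exact binomial and pileups exact Poisson 95% intervals, which cover counting error only. No test was made. There is 1 condition, and regions of a locus are not replicates.

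The genes and lists were chosen with earlier results of these data known. Named are the 8 genes, the genes nearest to any shared region in their windows, and genes of the lists with a shared region, or the 5 with the highest smaller fold. The values of 1 listed gene are not reported here. Alternatives were stricter thresholds and overlaps, narrower windows, other gene models and each library alone. Python 3.11.15, numpy 2.4.6, pandas 2.3.3, scipy 1.17.1 and pysam 0.24.0 were used.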

Additional observations from a re-analysis of the deposited data

How the results depend on the processing

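The strongest regions of Zeb2 and Cdh1 were the same when ranked by pileup over the genome-wide background or by the mean of both folds. At Ctnnb1 this ranking gave no value, since no shared region was nearest to it. The 40 shared regions in the windows became 17 within 100 kb of a TSS and 14 within 50 kb, and the peaks of a single library numbered 50 to 69. The share of window peaks with a partner in replicate 1, 86%, was 97.2% at a fold of at least 5, 66% when summits had to lie within 100 bp and 64% at 50% reciprocal overlap, and in replicate 2 it went from 59.4% to 46.4% at 50% reciprocal overlap. Stricter settings and narrower windows removed peaks or partners, while a single library needed no partner. What else lay behind the shifts was not tested. The 12 nearest regions ranged from 8 with predicted transcripts to 17 with protein-coding TSSs alone, over 3 to 5 genes, and from 16 to 17 peaks in a single library, over 4 to 5 genes. The share with a CEBP string was 58.3% within 50 bp of the summit, 83.3% within 200 bp and 75% when the summits of either library alone were used for the same 12 regions.

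Among single genes, Zeb2 kept 2 regions with predicted transcripts, Ctnnb1 gained 4 with protein-coding TSSs, and Snai3 had 0 at a fold of at least 5 and at 50% reciprocal overlap. In single libraries Zeb1 had 2 to 3 nearest peaks, Snai3 had 2 and Ctnnb1 had 1 in replicate 2. No paired analysis was possible because the labels carry no replicate numbers and the libraries are of 1 condition. Depth limits the order of regions, since most pileups at these genes lay within each other's intervals.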

Other observations

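The ZEB/SNAIL E-box was less frequent at SMAD4 summits than beside them, a contrast that was noticed in these data, and the comparison strings were chosen after the data were seen. CAGGTG was found within 100 bp of the summit in 5.84% of the 10964 shared regions (exact 95% binomial interval 5.41% to 6.29%, counting error only). In windows of the same size centred 200, 500 and 1000 bp away on either side it was found in 11.6%, 13.0% and 13.5%. CAGGTA, the other common ZEB site, gave 3.46% (3.12% to 3.82%) at the summit and 7.62%, 9.04% and 9.23% at these distances.

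Over the shared regions, other strings that differ from CAGGTG in 1 letter had smaller contrasts or none in this direction. At the summit and 1000 bp away, CAGATG was found in 15.1% and 15.3%, CAGCTG in 9.21% and 8.62%, CAGGTC in 7.58% and 9.98% and GAGGTG in 9.44% and 11.0%. The name ZEB/SNAIL E-box does not mean that only these proteins bind CAGGTG, and the letters do not tell them from E-proteins. CAGTTG was found in 13.8% at the summit and in 10.1% at 500 bp. Outside promoters CAGGTG was found in 5.88% and 13.4% of regions. Over all peaks of a list it was found in 5.62% and 12.3% in replicate 1 and 6.85% and 13.3% in replicate 2. Among unshared peaks of replicate 1 it was found in 4.79% and 9.81%, but there the contrast was not particular to it. CAGGTC was found in 3.73% and 8.67% of these windows, CAGCTG in 3.99% and 6.90%, CAGATG in 9.13% and 13.4%, CAGTTG in 7.87% and 9.43%, and GAGGTG in 5.09% and 8.27%. Among unshared peaks of replicate 2 CAGGTG was found in 7.94% and 13.1%.

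Among the 12 regions nearest to the 8 genes, 2 held the E-box (16.7%), and 3 of their 24 flanking windows did (12.5%). Both regions were at Zeb2, its strongest region upstream and the region in its intron. The region upstream of Ctnnb1 with the highest fold in replicate 2 held 2 E-boxes. No value here says whether a ZEB, SNAIL or other E-box protein was bound at any of them.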
